A study of Mus musculus with 22 samples.

Results

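The genes described here are 47 genes of DNA replication and S phase, from origin recognition to the joining of nascent strands, together with nucleotide synthesis and the regulators of S phase entry. Each was found by its gene symbol among the probe sets that carry 1 symbol, and was read from the brightest of these, by the mean of all 22 arrays. This gave values for 46 of the 47 genes, out of 18193 genes measured in the series. The remaining one is Chaf1a. Expression was measured on Affymetrix arrays in Rex1GFPd2 cells, a mouse embryonic stem (ES) cell reporter line, and all values are log2 expression as deposited. Every culture was grown in a mixture of Neurobasal and DMEM/F12 with N2 and B27, was transfected with siRNA, received the MEK inhibitor PD0325901 (PD) and was harvested 72 hours after transfection. The 2i control arm (control siRNA, medium with PD and the GSK3 inhibitor CHIR99021, CHIR) had 7 arrays, 4 with control siRNA 1 and 3 with control siRNA 2. The PD-only control arm (control siRNA, moved after 24 hours to medium without CHIR) also had 7 arrays, 4 and 3 by siRNA. The YAP/TAZ siRNA arm (siRNA 1 or siRNA 2 against YAP and TAZ, the transcriptional coactivators of the Hippo pathway encoded by Yap1 and Wwtr1, also moved after 24 hours to medium without CHIR) had 8 arrays, 4 of each siRNA. No YAP/TAZ siRNA arrays in 2i were analysed here, the labels describe a change of medium for the PD-only arms alone, and loss of CHIR and that change cannot be told apart. The labels call the arrays of a group biological replicates without naming separate cultures or days, so p-values measure only the spread between these arrays.

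In the G1 phase the origin recognition complex, Cdc6 and Cdt1 load the MCM helicase onto DNA, a step called licensing, and geminin (Gmnn) later blocks Cdt1 so that no origin fires again in the same cycle. Cdc45 and the GINS complex then turn the loaded MCM ring into an active helicase, primase and the DNA polymerases copy the strands behind the sliding clamp Pcna, and Fen1 and Lig1 join the Okazaki fragments of the lagging strand. Cyclin E and the E2F factors drive entry into S phase, and ES cells are known for a short G1 phase and for spending much of their cycle in S phase.

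Both siRNA targets were reduced by the YAP/TAZ siRNAs: Yap1 lay between 9.67 and 9.91 there, against 11.00 to 11.07 in PD-only control, and Wwtr1 between 9.18 and 9.41, against 10.25 to 10.34. The 10 ES cell markers had a mean log2 level of 12.39 to 12.46 in 2i arrays, 11.93 to 11.97 in PD-only control and 12.17 to 12.19 with YAP/TAZ siRNA, so the arms did not overlap. A list of 8 measured fibroblast markers, which feeder cells would carry, had a mean log2 level of 6.69 to 6.82 in PD-only control arrays, against 4.62 to 4.87 in 2i and 4.72 to 4.90 with YAP/TAZ siRNA. Of these, Col1a1 stood at 8.85 to 9.22 in PD-only control and Lum at no more than 3.63 in any array, near the lowest value of the table, 2.09. The 8 trophoblast markers had a mean level of 6.98 to 7.08 in PD-only control, 5.92 to 5.98 in 2i and 6.16 to 6.29 with YAP/TAZ siRNA. The 8 primitive endoderm markers stood at 5.38 to 5.49, 4.72 to 4.85 and 4.66 to 4.86, and the 6 measured neural markers at 6.28 to 6.34, 5.45 to 5.72 and 6.12 to 6.36, in the same order of arms. The gap between the 3′ and the 5′ control probe sets of Actb, a measure of RNA integrity, was 0.72 ± 0.035 (SD, n = 7) in PD-only control, 0.97 ± 0.10 (n = 7) in 2i and 0.98 ± 0.062 (n = 8) with YAP/TAZ siRNA. PD-only control was lower than both other arms (exact permutation test, two-sided, Benjamini-Hochberg adjusted over 6 tests, p = 0.00117 and 0.000465), and the adjusted p between 2i and YAP/TAZ siRNA was 0.87. The correlation between arrays of an arm was at least 0.9977.

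Genes of DNA replication were higher in YAP/TAZ siRNA cells than in either control arm. Against PD-only control, 39 of the 46 genes were called higher, led by Mcm10, Rpa3, Tyms, Cdc45 and E2f1 at 1.57-fold to 1.64-fold, and 4 were called lower (limma, Benjamini-Hochberg adjusted p at or below 0.05), where 35.5% of all genes were called higher and 26.3% lower. Against 2i control, 39 were again called higher, led by Ccne1, Cdc6 and Cdc45, and 3 lower, where 25.5% and 22.8% of all genes were called. Between the control arms the genes went both ways: 18 were higher in 2i and 13 lower, beside 31.3% and 26.7% of all genes. No member reached a 2-fold difference in any of the 3 comparisons. In a bulk sample, fewer cells of a type and less RNA per cell cannot be told apart.

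The median log2 difference over the 46 genes was 0.25 for YAP/TAZ siRNA against PD-only control and 0.23 against 2i control, beside 0.061 and 0.015 over all genes. Between 2i and PD-only control it was 0.010, beside 0.044 over all genes. In 36 members all 8 YAP/TAZ siRNA arrays lay above all 7 PD-only control arrays, which holds for 21.1% of all genes, and in 3 they lay below them (19.3% of all genes). In 35 members they lay above all 2i arrays (14.9% of all genes), and in 0 members below them (13.3% of all genes; limma called Orc3, Orc5 and Prim2 lower, with overlapping arrays). In 29 members they lay above all 14 control arrays, a position taken by 8.87% of all genes. All 2i arrays lay above all PD-only control arrays in 14 members and below them in 10, against 18.7% and 19% of all genes. The comparisons with PD-only control share its 7 arrays and are therefore not independent of each other.

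**Figure D1:**
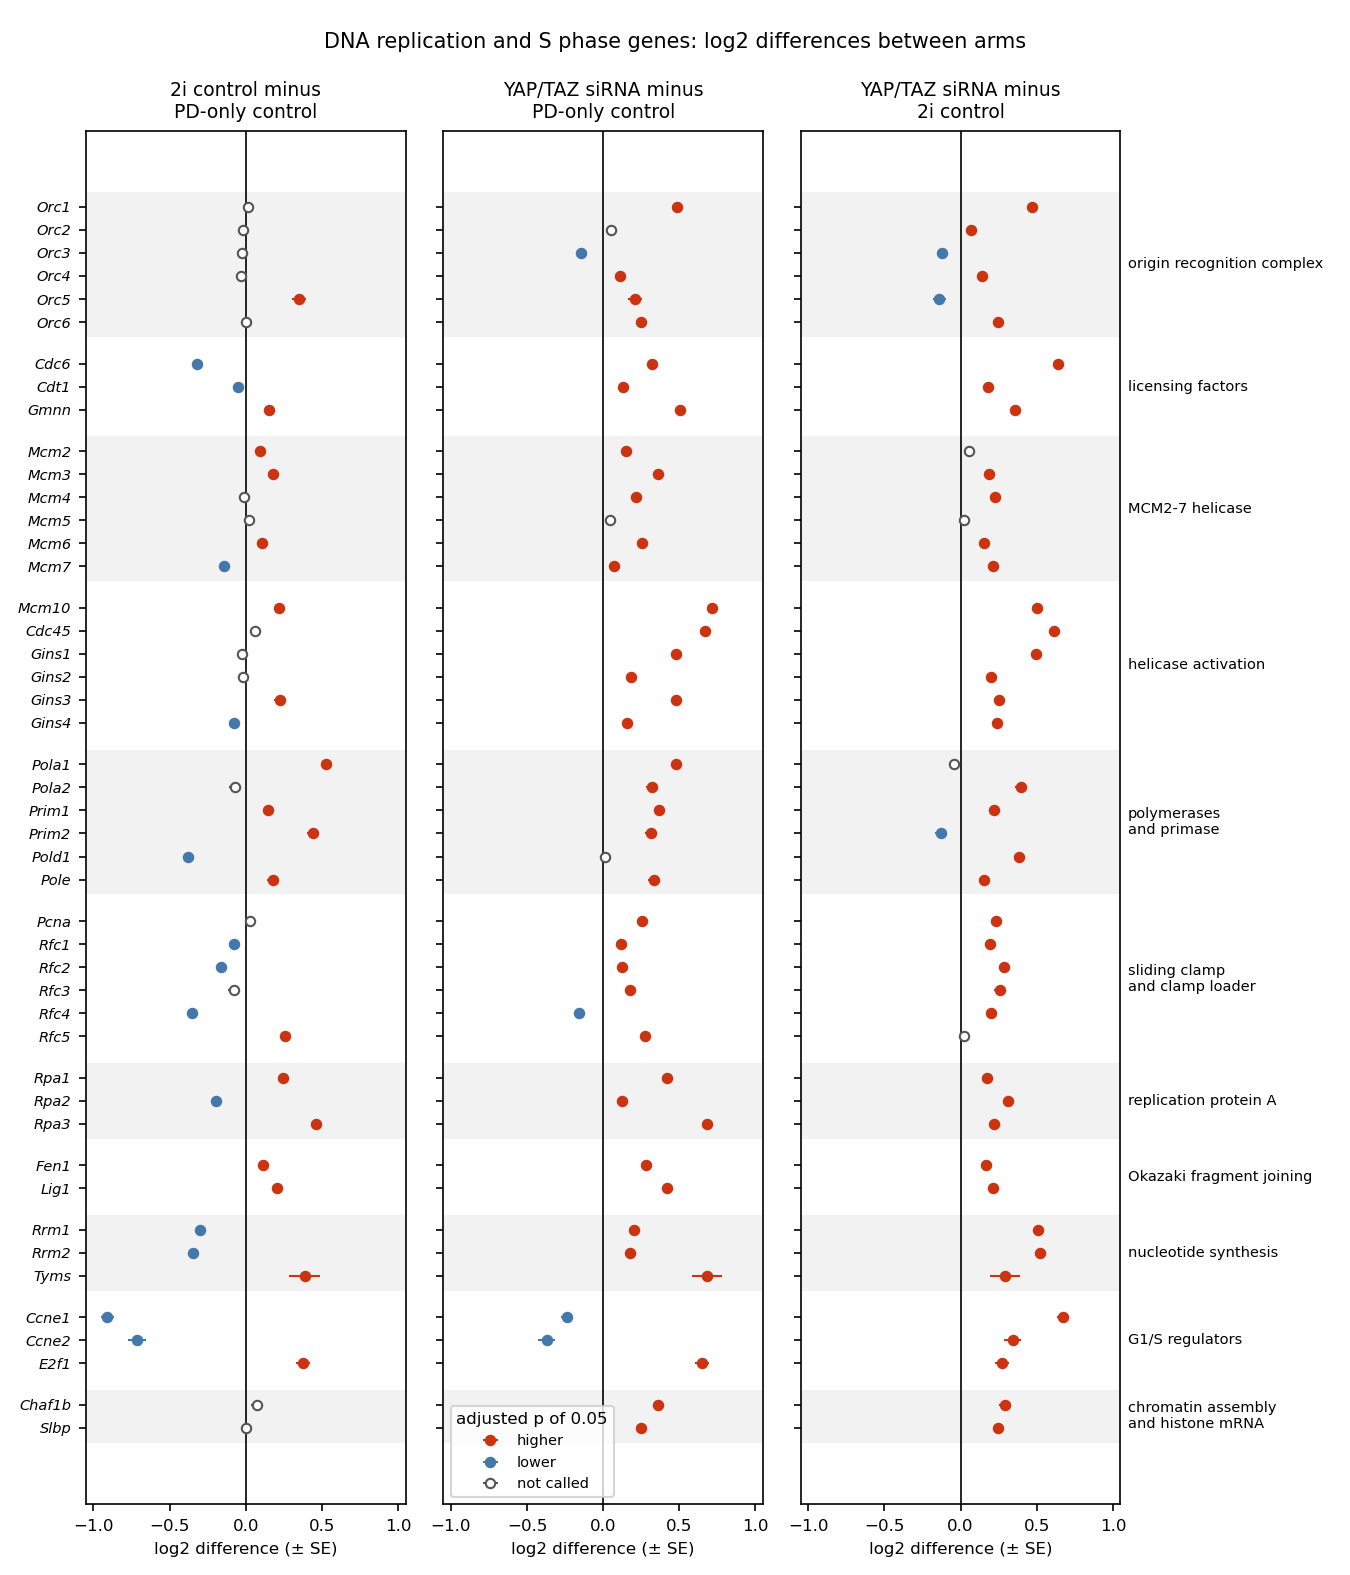
Each point is 1 gene, ordered by role; the x axes give the log2 difference ± SE of the model for the comparison named above each panel. Red points were called higher and blue points lower at an adjusted p of 0.05, and open points were not called. In the middle panel 39 of 46 points are red, while the left panel holds 18 red and 13 blue points.

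**Figure D2:**
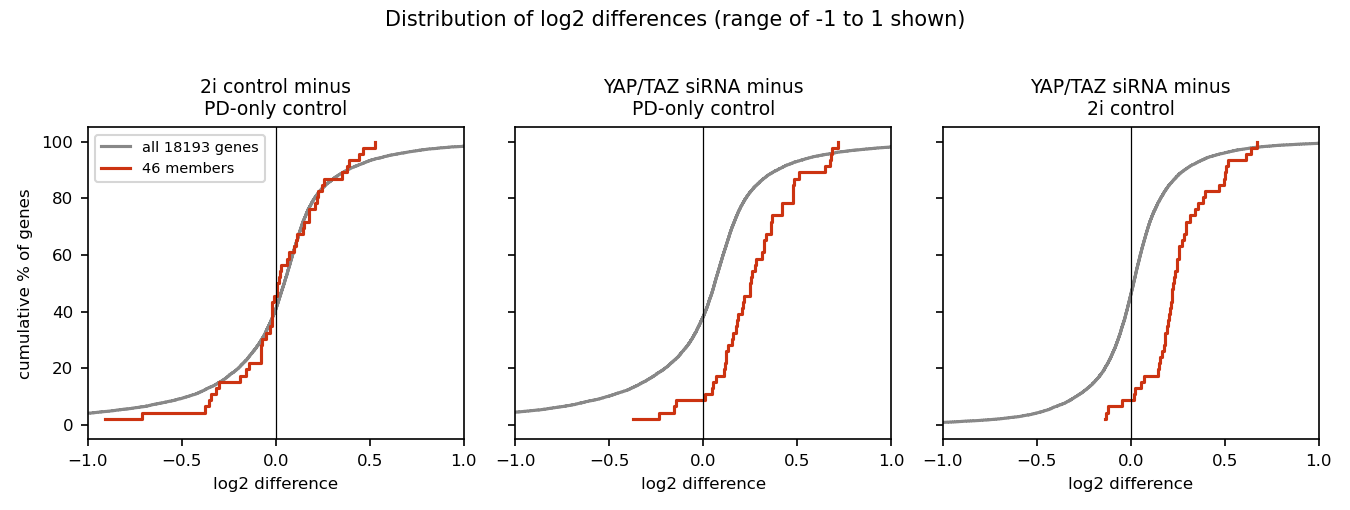
Cumulative share of genes (y axis, %) by log2 difference (x axis) for the 46 replication genes in red and all 18193 genes in grey, in the 3 comparisons; differences beyond -1 and 1 are outside the range shown. The red curve lies to the right of the grey one in both comparisons of YAP/TAZ siRNA, with medians of 0.25 and 0.23, and runs along it between the control arms, with a median of 0.010.

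Promoter sequences were examined because E2F factors bind upstream of many replication genes and most members were called in 1 direction with YAP/TAZ siRNA. RefSeq promoters on GRCm38.p6 (250 bases before to 50 after a start site) were matched for 37 members. Gmnn, Mcm4, Gins1, Gins2, Gins4, Prim2, Pole, Rfc2 and Ccne2 were not in the table used. The E2F-like letters searched were TTTCCCGC, TTTGGCGC, TTTCGCGC and TTTGCCGC on both strands, each match counted at its own start even where matches share bases. They were found for 13 of the 37 members (35.1%), against 3.81% of the 14452 measured genes with a promoter in the table and 2.6% of all 27025 genes in it. The letters CCAAT, also on both strands, were found for 23 of 37 members (62.2%), against 42.0% and 41.1%. Members with E2F-like letters (Orc1, Orc3, Cdc6, Cdt1, Mcm3, Mcm5, Mcm6, Mcm7, Gins3, Pola1, Pold1, Rfc3 and Lig1) and the 24 without them had nearly the same median log2 difference between YAP/TAZ siRNA and PD-only control, 0.26 and 0.25. No test was made of these medians, and a match describes letters, not a bound site.

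The 6 sequences below belong to the members with E2F-like letters and the largest differences between YAP/TAZ siRNA and PD-only control; they are written 5′ to 3′ on the gene's strand, with the matched letters in capitals. For Orc1 (chr4:108579294-108579453, plus strand), Pola1 (chrX:93632156-93632315, minus strand), Gins3 (chr8:95633399-95633558, plus strand) and Cdc6 (chr11:98907991-98908150, plus strand) the 160 bases before the start site are shown. For Lig1 (chr7:13278846-13278875, plus strand) and Mcm3 (chr1:20820266-20820295, minus strand) the letters lie just after the start site, and 30 bases around them are shown. The match begins 27 bases before the start in Orc1, 41 in Gins3 and 138 in both Pola1 and Cdc6, at base 27 after it in Lig1, and at bases 20 and 39 in Mcm3, the member of the 6 with 2 matches. Orc1 and Lig1 carry the same 8 letters, as do Gins3 and Cdc6.
Orc1: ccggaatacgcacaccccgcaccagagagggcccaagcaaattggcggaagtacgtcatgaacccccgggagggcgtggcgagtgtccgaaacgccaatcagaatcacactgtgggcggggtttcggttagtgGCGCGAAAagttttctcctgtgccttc
Pola1: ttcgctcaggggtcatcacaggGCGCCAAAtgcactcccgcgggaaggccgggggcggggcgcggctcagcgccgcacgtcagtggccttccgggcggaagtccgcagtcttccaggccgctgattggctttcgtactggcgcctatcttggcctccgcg
Gins3: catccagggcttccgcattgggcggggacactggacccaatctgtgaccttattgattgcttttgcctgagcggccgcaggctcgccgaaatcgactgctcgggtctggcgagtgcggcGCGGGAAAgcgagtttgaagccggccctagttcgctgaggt
Lig1: aagtgcGCGCGAAAtctgtgtggcgcgaat
Mcm3: tgGCGGGAAAacttgggaagtTTTGGCGCc
Cdc6: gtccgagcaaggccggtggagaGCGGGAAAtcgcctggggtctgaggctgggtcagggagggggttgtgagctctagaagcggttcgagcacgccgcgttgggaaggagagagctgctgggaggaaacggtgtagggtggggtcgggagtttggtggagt

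Among the 6 genes of the origin recognition complex, which marks the sites where replication can start, 4 were higher and 1 lower with YAP/TAZ siRNA than in PD-only control. Orc1 encodes the largest subunit, and values of each arm are given as its lowest, median and highest array. They were 9.75, 9.83 and 9.91 in 2i, 9.73, 9.81 and 9.89 in PD-only control and 10.26, 10.29 and 10.38 with YAP/TAZ siRNA. The control arms overlapped and the YAP/TAZ siRNA arrays all lay above them: the log2 difference was 0.48 ± 0.030 (SE) against PD-only control (1.40-fold, adjusted p = 1.3e-11) and 0.47 ± 0.030 against 2i. Orc6 differed by 0.25 ± 0.028, Orc5 by 0.21 ± 0.044 and Orc4 by 0.11 ± 0.030 against PD-only control. Orc5 was highest in 2i, where it was 0.35 ± 0.046 above PD-only control and 1.27-fold higher. Orc3 was lower with YAP/TAZ siRNA, at -0.14 ± 0.026 against PD-only control and -0.12 ± 0.026 against 2i. Neither other Orc3 probe set was called against PD-only control (-0.059 ± 0.046 and 0.063 ± 0.044). Against 2i they stood at -0.112 ± 0.046, not called, and -0.118 ± 0.044, called lower. The difference of Orc2 was 0.050 ± 0.028 against PD-only control (adjusted p = 0.129). Against 2i it was 0.068 ± 0.028 (adjusted p = 0.0492), a call lost in 16 of the 22 fits that leave out 1 array. Of the other Orc2 probe sets, neither was called against PD-only control. The brighter one was called higher than in 2i, by 0.21 ± 0.028, and the dimmer one was not called. Both were called for 2i minus PD-only control, in opposite directions, at -0.255 ± 0.029 and 0.153 ± 0.058. Orc5 lost its call against 2i without replicate A of control siRNA 2 in 2i (-0.098, adjusted p = 0.0567).

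All 3 licensing factors were called higher with YAP/TAZ siRNA than in either control arm. Cdc6, the loader that brings the MCM helicase to the origin, read 9.87, 9.97 and 10.03 in 2i, 10.25, 10.27 and 10.31 in PD-only control and 10.55, 10.61 and 10.63 with YAP/TAZ siRNA. The 3 arms did not overlap, with 2i lowest and YAP/TAZ siRNA highest: Cdc6 was 0.32 ± 0.024 above PD-only control (adjusted p = 2.31e-10) and 0.64 ± 0.024, or 1.56-fold, above 2i, while 2i minus PD-only control was -0.32 ± 0.025 (adjusted p = 5.47e-10). Gmnn, the inhibitor of Cdt1, read 11.48, 11.52 and 11.63 in 2i, 11.37, 11.38 and 11.41 in PD-only control and 11.86, 11.89 and 11.94 with YAP/TAZ siRNA. It also separated the 3 arms, but with PD-only control lowest: YAP/TAZ siRNA minus PD-only control was 0.51 ± 0.024, or 1.42-fold (adjusted p = 1.28e-13). Cdt1, the partner of Cdc6, read 12.73, 12.75 and 12.81 in 2i, 12.76, 12.81 and 12.86 in PD-only control and 12.91, 12.95 and 12.97 with YAP/TAZ siRNA. Its control arms overlapped and differed by -0.050 ± 0.021 (adjusted p = 0.0464), and YAP/TAZ siRNA minus PD-only control was 0.13 ± 0.020. The call of Cdt1 between the control arms was lost in 17 of the 22 fits that leave out 1 array (adjusted p up to 0.136).

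The 6 subunits of the MCM helicase, the ring that unwinds DNA at the fork, were called in 1 direction only with YAP/TAZ siRNA. Against PD-only control 5 of 6 were called higher with YAP/TAZ siRNA and against 2i 4 of 6, with log2 differences from 0.047 to 0.36 and from 0.025 to 0.23. Mcm3 had the largest against PD-only control, 0.36 ± 0.031, and differed by 0.18 ± 0.031 from 2i. Mcm6 (0.26 ± 0.023 and 0.15 ± 0.023) and Mcm4 (0.22 ± 0.027 and 0.23 ± 0.027) followed. In all 3 genes the YAP/TAZ siRNA arrays lay above every control array. Mcm7 read 13.03, 13.17 and 13.24 in 2i, 13.26, 13.30 and 13.33 in PD-only control and 13.33, 13.37 and 13.40 with YAP/TAZ siRNA. It was lowest in 2i (-0.14 ± 0.030 against PD-only control, adjusted p = 0.00039). The YAP/TAZ siRNA arrays overlapped those of PD-only control at a difference of 0.070 ± 0.029 (adjusted p = 0.0423). That call was lost in 11 of the 22 fits that leave out 1 array (adjusted p up to 0.0809). The other 3 Mcm7 probe sets were called higher with YAP/TAZ siRNA than in PD-only control, by 0.16 ± 0.039, 0.18 ± 0.031 and 0.16 ± 0.033. Mcm2 was 0.15 ± 0.027 higher than in PD-only control and 0.057 ± 0.027 against 2i, the second not called. Its other probe set was called higher in both comparisons, by 0.149 ± 0.026 and 0.145 ± 0.026. Mcm5 was the one member called in none of the 3 comparisons and read 12.51, 12.56 and 12.61 in 2i, 12.50, 12.53 and 12.58 in PD-only control and 12.55, 12.58 and 12.61 with YAP/TAZ siRNA, with all arms overlapping. Without 1 of 3 arrays its difference from PD-only control was called (0.055, adjusted p = 0.0328, without replicate A of control siRNA 1 in PD-only medium). The Mcm5 probe set next in level was called higher with YAP/TAZ siRNA, by 0.12 ± 0.035 against PD-only control and 0.19 ± 0.035 against 2i. The chosen Mcm5 probe set is of a kind that can cross-hybridise, as are those chosen for Mcm2, Mcm3 and Mcm7. Whether this plays a part in the Mcm5 values was not tested.

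The genes that turn the loaded ring into a running helicase had the highest median difference from PD-only control of the 11 role groups, and all 6 were called higher with YAP/TAZ siRNA against both control arms. Their median log2 difference was 0.48 against PD-only control and 0.38 against 2i. A dimmer probe set each of Mcm10, Cdc45 and Gins3 was called higher than in PD-only control but not called against 2i. There these stood at 0.075 ± 0.054, 0.103 ± 0.052 and 0.125 ± 0.054. The other probe sets of Gins1 and Gins2 and the dimmest of Mcm10 were called higher in both comparisons. Mcm10, which is needed to start the assembled helicase, read 10.02, 10.11 and 10.17 in 2i, 9.86, 9.89 and 9.96 in PD-only control and 10.56, 10.62 and 10.64 with YAP/TAZ siRNA. It had the largest difference of any member against PD-only control, 0.72 ± 0.024 or 1.64-fold (adjusted p = 3.63e-16), and was 0.50 ± 0.024 above 2i. Cdc45, which binds the ring together with GINS, read 8.82, 8.90 and 9.10 in 2i, 8.86, 8.88 and 8.90 in PD-only control and 9.48, 9.56 and 9.59 with YAP/TAZ siRNA. Its control arms overlapped (0.060 ± 0.030, adjusted p = 0.0968), while YAP/TAZ siRNA lay 0.67 ± 0.029 above PD-only control and 0.61 ± 0.029 above 2i, 1.59-fold and 1.53-fold. On the dimmer Cdc45 probe set 2i was called higher than PD-only control, by 0.217 ± 0.054. Of the 4 GINS subunits, Gins1 read 10.56, 10.60 and 10.70 in 2i, 10.56, 10.62 and 10.70 in PD-only control and 11.05, 11.14 and 11.18 with YAP/TAZ siRNA. The control arms of Gins1 again overlapped, with differences of 0.48 ± 0.030 and 0.50 ± 0.030 for YAP/TAZ siRNA against PD-only control and 2i. Gins3 differed by 0.48 ± 0.035 against PD-only control and Gins2 by 0.18 ± 0.028. Gins4 read 10.11, 10.17 and 10.24 in 2i, 10.18, 10.26 and 10.29 in PD-only control and 10.34, 10.40 and 10.53 with YAP/TAZ siRNA. It was 0.16 ± 0.029 higher against PD-only control, while 2i minus PD-only control was -0.080 ± 0.030 (adjusted p = 0.0251) with overlapping arrays. That call was lost without any 1 of 4 control siRNA 2 arrays, replicates B and C in 2i and A and C in PD-only medium (adjusted p up to 0.068).

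**Figure D3:**
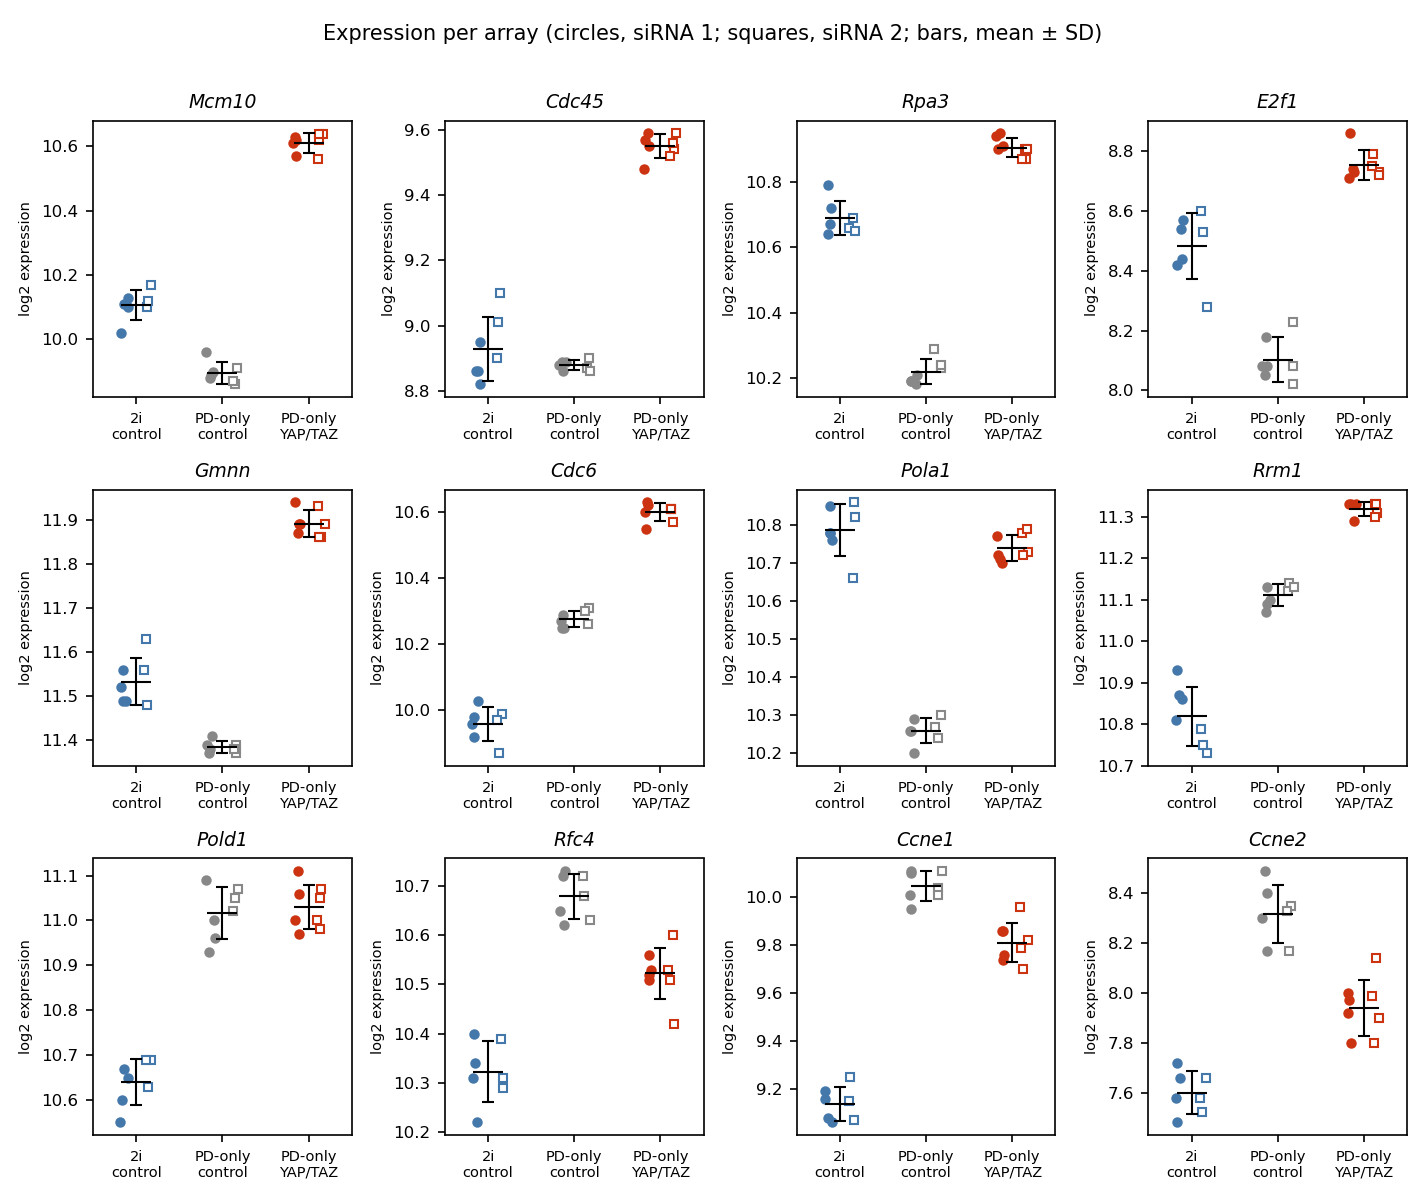
Log2 expression (y axes, separate range for each gene) of 12 members on every array, by arm on the x axis; circles are siRNA 1, squares siRNA 2, and black bars the mean ± SD over the 7 or 8 arrays of an arm. In the panels of Mcm10, Cdc45, Rpa3, E2f1, Gmnn, Cdc6 and Rrm1 every YAP/TAZ siRNA array lies above every control array, whereas Ccne1, Ccne2 and Rfc4 are highest in PD-only control.

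The polymerases and primase differed from one another in how the control arms related. Pola1, the catalytic subunit of the polymerase that starts each new strand, read 10.66, 10.78 and 10.86 in 2i, 10.20, 10.26 and 10.30 in PD-only control and 10.70, 10.73 and 10.79 with YAP/TAZ siRNA. PD-only control was the low arm, 0.53 ± 0.030 below 2i (1.44-fold higher in 2i, adjusted p = 3.33e-12) and 0.48 ± 0.029 below YAP/TAZ siRNA, while YAP/TAZ siRNA minus 2i was -0.046 ± 0.029 (adjusted p = 0.209), or -0.076 (adjusted p = 0.0161) without replicate A of control siRNA 2 in 2i. Prim2, the regulatory subunit of primase, read 9.76, 9.86 and 9.90 in 2i, 9.29, 9.41 and 9.47 in PD-only control and 9.60, 9.69 and 9.83 with YAP/TAZ siRNA. It too was lowest in PD-only control, by 0.44 ± 0.041 against 2i and 0.31 ± 0.039 against YAP/TAZ siRNA, and stood -0.13 ± 0.039 in YAP/TAZ siRNA minus 2i (adjusted p = 0.00846). Neither other Prim2 probe set was called for YAP/TAZ siRNA minus 2i (-0.051 ± 0.028 and -0.024 ± 0.085). Pold1, the catalytic subunit of the lagging-strand polymerase delta, read 10.55, 10.65 and 10.69 in 2i, 10.93, 11.02 and 11.09 in PD-only control and 10.97, 11.03 and 11.11 with YAP/TAZ siRNA. Here 2i was the low arm (-0.38 ± 0.031 against PD-only control, adjusted p = 1.19e-09), and the PD-only arms overlapped, with a difference of 0.0092 ± 0.030 (adjusted p = 0.802). The second Pold1 probe set was called higher with YAP/TAZ siRNA than in PD-only control, by 0.11 ± 0.03. Prim1, the catalytic subunit of primase, Pola2, the accessory subunit of polymerase alpha, and Pole, the catalytic subunit of the leading-strand polymerase, were 0.37 ± 0.024, 0.32 ± 0.039 and 0.33 ± 0.036 higher with YAP/TAZ siRNA than in PD-only control, and all 3 were also called higher than in 2i.

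Pcna, the sliding clamp that holds polymerases on DNA, was 0.26 ± 0.028 higher with YAP/TAZ siRNA than in PD-only control and 0.23 ± 0.028 higher than in 2i, with every array above all control arrays. The clamp loader that opens Pcna is built of the 5 Rfc subunits. Rfc1 read 10.13, 10.16 and 10.26 in 2i, 10.20, 10.26 and 10.28 in PD-only control and 10.33, 10.36 and 10.44 with YAP/TAZ siRNA. Rfc2 read 9.66, 9.81 and 9.85 in 2i, 9.88, 9.93 and 9.97 in PD-only control and 9.95, 10.06 and 10.14 with YAP/TAZ siRNA. Both were lowest in 2i (-0.080 ± 0.025 and -0.16 ± 0.033 against PD-only control) and highest with YAP/TAZ siRNA (0.12 ± 0.024 and 0.12 ± 0.032 against PD-only control), although the arrays of the 2i and PD-only control arms overlapped for Rfc1 and those of the PD-only arms for Rfc2. Another Rfc1 probe set went the opposite way between 2i and PD-only control, 0.43 ± 0.14 higher in 2i (adjusted p = 0.0162). Rfc4 was the loader subunit highest in PD-only control: YAP/TAZ siRNA minus PD-only control was -0.16 ± 0.032 and 2i minus PD-only control -0.35 ± 0.033. Rfc5 was lower in PD-only control than in both other arms, by 0.26 ± 0.027 against 2i and 0.28 ± 0.026 against YAP/TAZ siRNA, and Rfc3 was 0.18 ± 0.035 higher with YAP/TAZ siRNA than in PD-only control.

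All 3 subunits of replication protein A, which coats the single strands exposed at the fork, were called higher with YAP/TAZ siRNA against both control arms. Rpa3, the small subunit, read 10.64, 10.67 and 10.79 in 2i, 10.18, 10.21 and 10.29 in PD-only control and 10.87, 10.90 and 10.95 with YAP/TAZ siRNA. The 3 arms were separate, with PD-only control lowest: Rpa3 was 0.68 ± 0.023 (1.60-fold, adjusted p = 5.06e-16) higher with YAP/TAZ siRNA and 0.46 ± 0.024 higher in 2i. Rpa2, the middle subunit, read 10.28, 10.41 and 10.46 in 2i, 10.56, 10.60 and 10.62 in PD-only control and 10.65, 10.71 and 10.77 with YAP/TAZ siRNA. It was also separate in all arms but lowest in 2i, with -0.19 ± 0.026 for 2i minus PD-only control and 0.12 ± 0.026 for YAP/TAZ siRNA minus PD-only control. Rpa1, the large subunit, followed Rpa3 in the order of the arms, with differences of 0.42 ± 0.022 and 0.24 ± 0.023. Lig1, the ligase that seals Okazaki fragments, was 0.42 ± 0.021 and Fen1, the nuclease that trims their flaps, 0.28 ± 0.024 higher with YAP/TAZ siRNA than in PD-only control. Against 2i the values were 0.21 ± 0.021 and 0.17 ± 0.024.

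The 3 genes of deoxynucleotide supply were called higher with YAP/TAZ siRNA than in either control arm and differed in the order of the controls. Rrm1, the large subunit of ribonucleotide reductase, read 10.73, 10.81 and 10.93 in 2i, 11.07, 11.12 and 11.14 in PD-only control and 11.29, 11.33 and 11.33 with YAP/TAZ siRNA. Rrm2, its small subunit, read 12.10, 12.17 and 12.34 in 2i, 12.49, 12.53 and 12.56 in PD-only control and 12.61, 12.69 and 12.78 with YAP/TAZ siRNA. For both genes the arms were separate and 2i lowest: YAP/TAZ siRNA minus 2i was 0.51 ± 0.021 and 0.52 ± 0.033 (1.42-fold and 1.43-fold, adjusted p = 6.66e-14 and 4.63e-11), and 2i minus PD-only control -0.30 ± 0.022 and -0.35 ± 0.034. The chosen Rrm2 probe set can cross-hybridise, and both others of the gene were called in the same directions. Tyms, thymidylate synthase, read 5.23, 5.44 and 5.75 in 2i, 4.81, 5.15 and 5.31 in PD-only control and 5.56, 5.77 and 6.03 with YAP/TAZ siRNA, the one member with a mean below the median of all genes (6.64). Its values spread more within arms than those of other members, and the difference was 0.68 ± 0.098 against PD-only control (adjusted p = 4.01e-06), with no overlap, and 0.29 ± 0.098 against 2i (adjusted p = 0.0177), with overlap. The latter call was lost without replicate A or C of control siRNA 2 in 2i (adjusted p = 0.0565 and 0.0612). A second Tyms probe set was 0.30 ± 0.056 higher than in PD-only control, and the remaining 2, at mean levels of 3.36 and 3.06, were not called.

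The regulators of S phase entry held 2 of the 4 members that were lower with YAP/TAZ siRNA than in PD-only control, Ccne1 and Ccne2. Ccne1, cyclin E1, an activator of the kinase Cdk2, read 9.06, 9.15 and 9.25 in 2i, 9.95, 10.04 and 10.11 in PD-only control and 9.70, 9.81 and 9.96 with YAP/TAZ siRNA. It was lowest in 2i, -0.91 ± 0.042 against PD-only control (0.53 of its level there, adjusted p = 1.17e-13), the largest member difference between the control arms. YAP/TAZ siRNA lay in between, -0.24 ± 0.041 against PD-only control (adjusted p = 3.55e-05), with overlapping arrays, and 0.67 ± 0.041 against 2i. The other Ccne1 probe set gave -0.996 ± 0.029, -0.21 ± 0.028 and 0.78 ± 0.028 in the same order. Ccne2, cyclin E2, read 7.48, 7.58 and 7.72 in 2i, 8.17, 8.33 and 8.49 in PD-only control and 7.80, 7.95 and 8.14 with YAP/TAZ siRNA. Its 3 arms were separate in the same order, with -0.71 ± 0.058 for 2i and -0.37 ± 0.056 for YAP/TAZ siRNA against PD-only control (adjusted p = 7.39e-06). E2f1, a transcription factor of S phase genes, read 8.28, 8.53 and 8.60 in 2i, 8.02, 8.08 and 8.23 in PD-only control and 8.71, 8.74 and 8.86 with YAP/TAZ siRNA. It ran the other way, with PD-only control lowest and YAP/TAZ siRNA highest: the differences from PD-only control were 0.38 ± 0.046 for 2i and 0.65 ± 0.045 for YAP/TAZ siRNA (1.57-fold, adjusted p = 6.58e-11), and a second E2f1 probe set gave 0.30 ± 0.037 and 0.60 ± 0.036. Chaf1b, a subunit of the chromatin assembly factor, and Slbp, which binds histone mRNA, overlapped between the control arms and were 0.36 ± 0.038 and 0.25 ± 0.023 higher with YAP/TAZ siRNA than in PD-only control.

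In 16 members no arrays of different arms overlapped. In 10 of them (Gmnn, Mcm3, Mcm6, Mcm10, Gins3, Prim1, Rpa1, Rpa3, Lig1 and E2f1) YAP/TAZ siRNA lay above 2i and 2i above PD-only control, an order found in 2.81% of all genes. In 4 (Cdc6, Rpa2, Rrm1 and Rrm2) YAP/TAZ siRNA lay above PD-only control and PD-only control above 2i, found in 1.21% of all genes. In 2 (Rfc4 and Ccne2) PD-only control lay above YAP/TAZ siRNA and YAP/TAZ siRNA above 2i, found in 2.39%. Called lower in 2i and higher with YAP/TAZ siRNA, each against the shared PD-only control, were 9 members: Cdc6, Cdt1, Mcm7, Gins4, Rfc1, Rfc2, Rpa2, Rrm1 and Rrm2. This pair of calls was made for 3.01% of all genes. With the Actb gap as a covariate, 3 of the 9, Cdc6, Rpa2 and Rrm1, were still called in both directions. YAP/TAZ siRNA was the arm with the highest mean in 39 members (39.3% of all genes), and the arm with the lowest mean was 2i in 21 members (26.9% of all genes). PD-only control had the lowest mean in 24 of 46 members, near its share of 49.8% over all genes.

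For these genes no difference between the 2 siRNAs of a kind was called. Between YAP/TAZ siRNA 2 and 1, limma called 0 of 18193 genes (0%) and 0 members; 648 genes and 0 members had an unadjusted p below 0.05, and the largest member difference was 0.073, for Tyms. Between control siRNA 2 and 1 it also called 0 genes (0%) in each medium, with 1450 genes below an unadjusted 0.05 in 2i and 769 in PD-only medium. There 3 and 0 members were among them, and the largest member differences were 0.13 for Cdc45 in 2i and 0.11 for Gins3 in PD-only medium. The test of whether the control siRNAs differed between the media called 0 genes (0%), with 949 genes and 2 members below an unadjusted 0.05.

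Other genes of the replication pathway were counted by list, beside 35.5% of all genes called higher and 26.3% lower with YAP/TAZ siRNA against PD-only control and 25.5% and 22.8% against 2i. For 2i minus PD-only control these shares were 31.3% and 26.7%. Of 29 further genes of the replication machinery, 23 were higher and 4 lower with YAP/TAZ siRNA than in PD-only control (median 0.27), 22 and 3 against 2i, and 13 higher and 11 lower in 2i than in PD-only control. Against PD-only control the largest differences were those of Dna2, a nuclease and helicase that processes Okazaki fragments (1.09 ± 0.025), Ticrr, which helps to load Cdc45 (0.83 ± 0.03), Atad5, which unloads Pcna (0.73 ± 0.027), and Rfwd3, a ubiquitin ligase (0.57 ± 0.028). Against 2i they were those of Rnaseh2c, a subunit of the nuclease that removes RNA from DNA (1.04 ± 0.031), Pole4, a subunit of polymerase epsilon (0.62 ± 0.023), Dna2 (0.53 ± 0.025) and Dscc1, of an alternative clamp loader (0.52 ± 0.026). Of 13 further genes of nucleotide synthesis 7 were higher and 3 lower against PD-only control, led by Tk1, thymidine kinase (0.63 ± 0.038), and 8 were higher and 1 lower against 2i, with Tk1 at 0.70 ± 0.038. Of 8 checkpoint genes 5 were higher and 1 lower against PD-only control, led by Etaa1 (0.52 ± 0.033) and Chek1 (0.47 ± 0.03), while against 2i 3 were higher and 4 lower. Of 7 histone chaperones 5 were higher and 0 lower against PD-only control, led by Hira (0.30 ± 0.043) and Asf1a (0.29 ± 0.0245).

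The regulators around E2F and the G1 kinases moved in both directions. Of 14 E2F, RB and DP genes 7 were higher and 5 lower with YAP/TAZ siRNA than in PD-only control, counts not far from the 35.5% and 26.3% of all genes for so short a list. E2f7 and E2f8, which act as repressors within the E2F family, were lower, at -1.10 ± 0.029 and -0.65 ± 0.038. For these genes 2i minus PD-only control was -1.295 ± 0.03 and -1.39 ± 0.039. E2f4 was called higher with YAP/TAZ siRNA than in PD-only control, by 0.16 ± 0.056, and E2f5 and E2f6 were not called. E2f2, an activator, was 0.51 ± 0.044 higher with YAP/TAZ siRNA than in PD-only control and 0.97 ± 0.044 higher than in 2i. Rb1, Tfdp1 and Tfdp2 were lower than in PD-only control, at -0.54 ± 0.034, -0.33 ± 0.024 and -0.34 ± 0.028. Called higher were E2f3 (0.23 ± 0.024), Rbl1 (0.29 ± 0.032), Rbl2 (0.25 ± 0.036), Lin9 (0.38 ± 0.0475) and Lin54 (0.14 ± 0.038). Against 2i, 7 of the 14 genes were higher and 5 lower. Of 21 G1/S kinases, cyclins and inhibitors 11 were higher and 5 lower against PD-only control, with Cdk6, a partner of the D cyclins, 1.32 ± 0.032 higher and the kinase inhibitors Cdkn2b and Cdkn1c lower, at -1.65 ± 0.038 and -1.28 ± 0.068. The cyclin gene Ccna2 was also lower, at -0.107 ± 0.0275. Cdk6 was highest in 2i, 1.84 ± 0.033 above PD-only control, and was called lower with YAP/TAZ siRNA than in 2i, at -0.52 ± 0.032. Against 2i, 14 of the 21 were higher and 3 lower. The 13 genes of G2 and mitosis gave other counts than the replication genes. All 13 were lower in 2i than in PD-only control (median -0.54), where 26.7% of all genes were lower. With YAP/TAZ siRNA 3 were higher and 7 lower than in PD-only control (median -0.072). All 13 were higher with YAP/TAZ siRNA than in 2i (median 0.42), where 25.5% of all genes were higher. Cdc20, an activator of the anaphase-promoting complex, stood at -0.35 ± 0.028 in YAP/TAZ siRNA minus PD-only control and at 0.71 ± 0.028 in YAP/TAZ siRNA minus 2i.

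**Figure D4:**
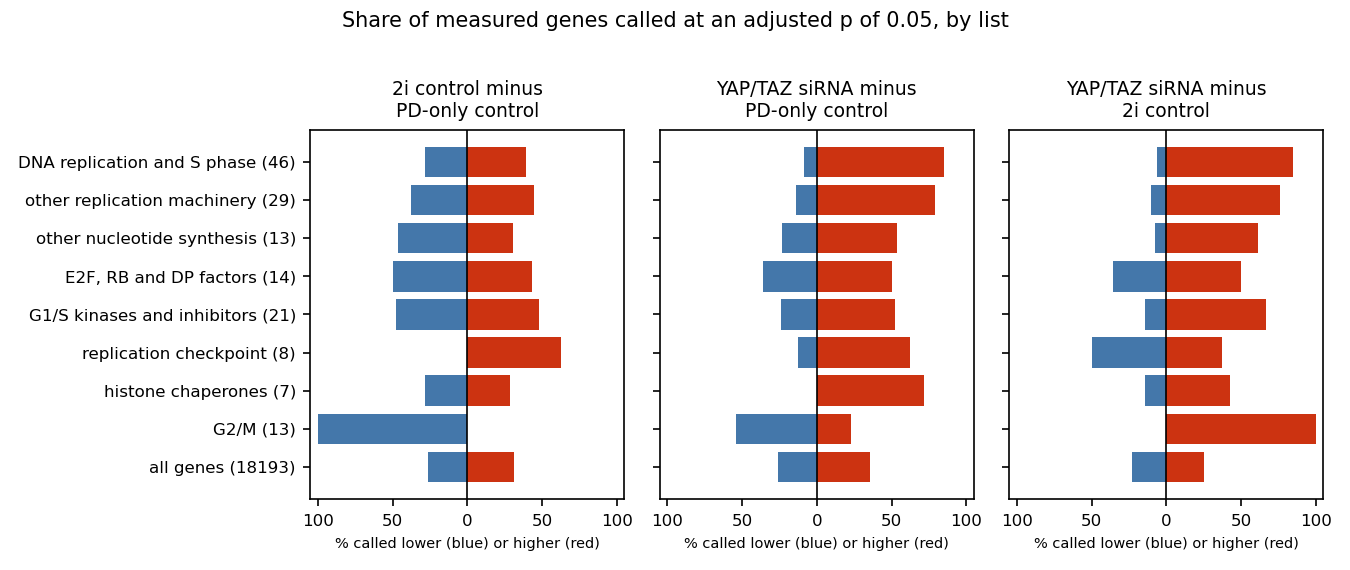
Share of the measured genes of each list (number in brackets) called lower, in blue to the left, or higher, in red to the right, at an adjusted p of 0.05 (x axes, %), in the 3 comparisons. The replication members and the 29 further replication genes show the longest red bars with YAP/TAZ siRNA against PD-only control, 39 of 46 and 23 of 29 genes, while the G2/M bar lies mostly to the left there.

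The low Actb value of PD-only control and its mean marker levels move with every comparison against that arm. Those means were low for ES cell markers and high for fibroblast, trophoblast and primitive endoderm markers, but the genes within a list did not all move alike. With YAP/TAZ siRNA against PD-only control, 6 of 10 ES cell markers were called higher and 2 lower. Of 8 trophoblast markers 2 were higher and 4 lower, of 8 primitive endoderm markers 0 and 3, and of 8 fibroblast markers 0 and 6. Among all genes 35.5% were called higher and 26.3% lower. The part of the markers in these results was not tested. With the Actb gap as a covariate, 36 members were higher and 2 lower with YAP/TAZ siRNA than in PD-only control, with Orc3 and Rfc4 no longer called lower. Orc4, Mcm2 and Rrm2 were no longer called higher, Rrm2 at 0.046 (adjusted p = 0.536). With the same covariate, 8 rather than 13 were lower in 2i than in PD-only control. Between YAP/TAZ siRNA and 2i, where 39 members were higher, or 38 with the covariate, the Actb gap and the fibroblast and primitive endoderm levels had overlapping ranges. The ES cell, trophoblast and neural levels did not overlap there, and their part was not tested either.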

How the data were processed

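Total RNA of 22 Rex1GFPd2 cultures was biotin-labelled with a 3′ IVT kit and run on 1-colour Affymetrix arrays, per the labels' protocols. The deposited values are log2 expression per probe set, made by the authors with RMA, per the submitters' processing notes; the version is not given in the sources used here, and the scale was read from the tool and the range of 2.09 to 14.91. RMA makes array distributions alike, which hides any change in the total RNA of a cell, and differences of dim probe sets are compressed. Array medians lay between 5.53 and 5.55 in PD-only control, 5.51 and 5.53 in 2i, and 5.51 and 5.52 with YAP/TAZ siRNA. PD-only control was higher than 2i and YAP/TAZ siRNA (exact permutation test, adjusted as for Actb, p = 0.00262 and 0.000465). Between 2i and YAP/TAZ siRNA the adjusted p of that test was 0.0709.

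Of 45101 probe sets, 34945 carry 1 symbol and give 18193 genes, each read from its brightest probe set. The 46 members had 104 probe sets, and 35 members had several. Of the 58 others, 26 shared the call of a called chosen one for 2i minus PD-only control. For YAP/TAZ siRNA the number was 41 against PD-only control and 35 against 2i. Not called were 23, 14 and 20 in these 3 comparisons. Those called opposite to a called chosen one numbered 1, 0 and 0. The rest were called where the chosen one was not. With limma 3.58.1 (lmFit, eBayes; R 4.3.3), 1 mean was estimated per combination of medium and siRNA, 6 in all. Arms were compared as the equal-weight mean of their siRNA groups, with Benjamini-Hochberg adjustment over all genes and calls at 0.05. Calls of the 58 other probe sets came from the same model fitted to all 34945 single-symbol probe sets, with adjustment over these. In that fit the chosen probe sets lost their call for Mcm7 against PD-only control (adjusted p = 0.0557), Orc2 against 2i (0.0659) and Cdt1 between the control arms (0.0729). Errors of differences are SEs of the model. Alternatives changed the probe set rule, the normalization, the variance model, the arrays used and the covariates; statmod 1.5.0 was used for the random block. The fit was tested on simulated data. Promoters and figures used Python 3.11.15, pandas 2.3.3 and matplotlib 3.10.9.

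The members and lists were chosen with earlier results of these data known. All members are named; values by array are given for the up to 8 called members with the largest difference per comparison, those called in opposite directions in the first 2 comparisons and those called in none. From each further list up to 4 called genes with the largest difference per comparison could be named.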

Additional observations from a re-analysis of the deposited data

Results flagged for a closer look

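Of 184 combinations of a member and a group of 4 arrays, 7 held 1 array that stood apart from its group's other arrays, where chance gives about 1 in 20 such combinations. Mcm3 read 12.21 on replicate C of control siRNA 1 in 2i, above the others of its group at 12.15 or less, and 12.26 on replicate D of YAP/TAZ siRNA 2, below the others at 12.36 or more. Mcm2 read 11.93 on replicate B of control siRNA 1 in PD-only medium, above 11.85. Rrm1 read 11.29 on replicate C of YAP/TAZ siRNA 1, below 11.33. On replicate D of YAP/TAZ siRNA 2, Orc1 read 10.38, above 10.28, and Cdc6 read 10.57, below 10.61. Rpa1 read 12.68 on replicate A of YAP/TAZ siRNA 2, below 12.71. Each of these gaps was at most 0.10 on the log2 scale.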

How the results depend on the processing

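Counts of called members stayed within 1.5 times of the reported ones under every alternative run except 2. Requiring a log2 difference of 0.5 left 1 member higher and 2 lower for 2i minus PD-only control, 6 and 0 for YAP/TAZ siRNA minus PD-only control, and 6 and 0 against 2i. With the Actb gap as a covariate, 8 members were lower in 2i than in PD-only control and 2 were lower with YAP/TAZ siRNA than in PD-only control. Leaving out 1 array at a time gave 18 to 19 higher and 12 to 14 lower members between the control arms, 38 to 40 and 4 for YAP/TAZ siRNA against PD-only control, and 37 to 40 and 3 against 2i. With the mean of all probe sets of a gene, 2i minus PD-only control turned positive for Orc3 (0.071), Orc4 (0.074) and Rfc1 (0.067). That mean takes in a dimmer probe set of each gene that was called higher in 2i, at 0.181 ± 0.046, 0.262 ± 0.030 and 0.43 ± 0.144. The replicate letters did not pair the arrays (5 of 22 correlated best with their own letter), and with them as a replicate block the counts were 18 and 13, 38 and 4, and 38 and 3. Between the control arms, Cdc45, Chaf1b and Pola2 gained a call without 1 array and Rfc3 without any of 3; against 2i, Mcm2 gained one without either of 2. The number of arrays limits the precision, and the 2-decimal values limit the smallest readable step.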
